A study of Homo sapiens with 16 samples.

Results

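The genes described here encode proteasome subunits, ubiquitin-conjugating enzymes (E2) and ubiquitin-specific proteases (USP), and were taken by symbol: those starting PSMA, PSMB, PSMC, PSMD or UBE2, or USP followed by a digit. The deposited tables name transcripts by identifier and length only, so genes were named by matching the lengths of neighbouring entries to the GENCODE annotation, and each gene was represented by its entry with the most counts over all libraries. This named 9148 genes, of which 85 met the symbol rule: 24 proteasome, 18 E2 and 43 USP genes. The annotation holds 157 symbols of this form, 26 of them the near-identical USP17L copies, and 72 could not be named. Among the unnamed were the subunits PSMA5 and PSMA7, the E2 genes UBE2D1 and UBE2N, and USP1, so the classes are samples of these families and not whole families. The rule also takes in PSMC3IP, a cofactor of meiotic recombination, and USP6NL, a GTPase-activating protein, which are no part of the proteasome or the USP family.

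The proteasome is a barrel of stacked alpha and beta rings, in which the beta subunits cut peptides, capped by a regulatory particle. ATPases (PSMC) in the base of that cap unfold substrates, and the PSMD subunits bind and remove their ubiquitin. An E2 carries activated ubiquitin from the E1 enzyme to a substrate chosen by an E3 ligase, and USP enzymes take ubiquitin off again. Rocaglamide A (RocA) clamps the helicase eIF4A, a part of the machinery that loads ribosomes on messenger RNA, onto purine-rich RNA.

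Ribosome-protected fragments were sequenced from 4 established human lines, all of genetic background labelled WT: NCI-H1650 and NCI-H520, from lung cancer, with Hs 936.T and A375, from melanoma. Values by line follow that sequence (line order). Cells were given DMSO, the solvent, or RocA at 0.3 or 3 µM, each for 30 min. Every line had 2 DMSO libraries and 1 library at each RocA dose, 16 in all, so the 4 lines served as the replicates of a dose and each is 1 model of its tumour. The values are footprint counts per transcript, given as CPM (counts brought to a common total over the tested genes, with edgeR's trimmed mean of M values). They are relative: a change in total footprints per cell does not show in them, and with no RNA measurement used here, less RNA and less translation of each RNA cannot be told apart.

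DMSO libraries held 533603 to 2974805 counts over the named genes, and RocA libraries 47878 to 564656, the smallest being NCI-H1650 at 3 µM. The second DMSO library and the 3 µM library of NCI-H520 carry the line label NCI-H521 beside titles that name 520. Of the marker genes named, the melanocyte list (PMEL, DCT, SLC45A2, MITF, 4 of 8) summed to 28380 to 53850 CPM in Hs 936.T but 37.3 to 174.5 CPM in A375, the other melanoma line. NCI-H520 held 263.8 to 2258 CPM of these markers, and in its DMSO libraries they stood at a median of 3.4% and 7.63% of their Hs 936.T level, against 0.869% and 1.84% in its RocA libraries. Without NCI-H520, 14 members rose and 36 fell at 0.3 µM and 12 and 31 at 3 µM, and without the libraries labelled NCI-H521 the numbers were 16 and 32, and 12 and 28. Epithelial markers (KRT8, CDH1, CLDN7, 3 of 6) summed to 11540 to 19110 CPM in NCI-H1650, 2351 to 3628 in NCI-H520 and at most 17.6 in the melanoma lines. The squamous markers KRT5 and TP63, 2 of 5, reached at most 4.797 CPM in NCI-H520, and the only alveolar marker named, SFTPB, was at 0 in every library. Mesenchymal markers lay between 37.8 CPM in Hs 936.T and 1704 CPM in A375. The blood-cell list (PTPRC, CD74, 2 of 3) summed to 2856 to 4206 CPM in A375 against at most 234.6 CPM elsewhere. In every A375 library 1 of these genes had 0 counts, so that sum rests on 1 gene alone.

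After 30 min of RocA 65.3% of the tested members had changed their share of footprints at 0.3 µM and 63.9% at 3 µM, and falls outnumbered rises at both doses. Of 72 members with enough counts, 15 rose and 32 fell at 0.3 µM (edgeR quasi-likelihood test with line as a covariate, Benjamini-Hochberg adjusted p under 0.05 over all tested genes). Among all 5819 genes tested, 24.5% rose and 34.6% fell at that dose, so the members' share that rose (15 of 72) was below that of all genes and the share that fell (32 of 72) above it. At 3 µM 15 members rose and 31 fell, against 23.3% of all genes higher and 32.7% lower. The median log2 change was -0.38 at 0.3 µM and -0.35 at 3 µM over the members, and -0.15 and -0.20 over all genes. Both doses were compared with the same DMSO libraries, so their likeness is no independent evidence.

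For comparison with the classes, 24.5% of all tested genes were higher and 34.6% lower at 0.3 µM, with a median log2 change of -0.15. At 3 µM these values were 23.3%, 32.7% and -0.20. By class, proteasome genes had 6 of 23 higher and 8 lower at 0.3 µM, near the shares of all genes. They had 9 higher and 8 lower at 3 µM. Their median log2 changes were -0.13 and 0.15. Without PSMC3IP and the assembly chaperones PSMD5, PSMD9 and PSMD10, 4 of 19 subunits were higher and 8 lower at 0.3 µM. At 3 µM 7 of these subunits were higher and 8 lower. The medians of these subunits were -0.16 at 0.3 µM and -0.02 at 3 µM. E2 genes leaned down, with 2 of 15 higher and 7 lower at either dose and medians of -0.55 and -0.61. USP genes also leaned down, with 7 of 34 higher and 17 lower at 0.3 µM, 4 higher and 16 lower at 3 µM, and medians of -0.49 and -0.62. Changes of at least 2-fold were mostly falls: 20 members fell and 3 rose that far at 0.3 µM, and 19 and 5 at 3 µM. Over all tested genes 21.5% fell and 10.6% rose that far at 0.3 µM, and 22.6% and 10.8% at 3 µM. Of the called members, 12 of 15 higher and 28 of 32 lower at 0.3 µM lay beyond both DMSO libraries of their own line in all 4 lines, as did 11 of 15 and 25 of 31 at 3 µM. Among all called genes this held for 73.9% of the higher and 78.1% of the lower at 0.3 µM, and 68.2% and 77.7% at 3 µM. Whether the classes differ from each other was not tested.

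**Figure D1:**
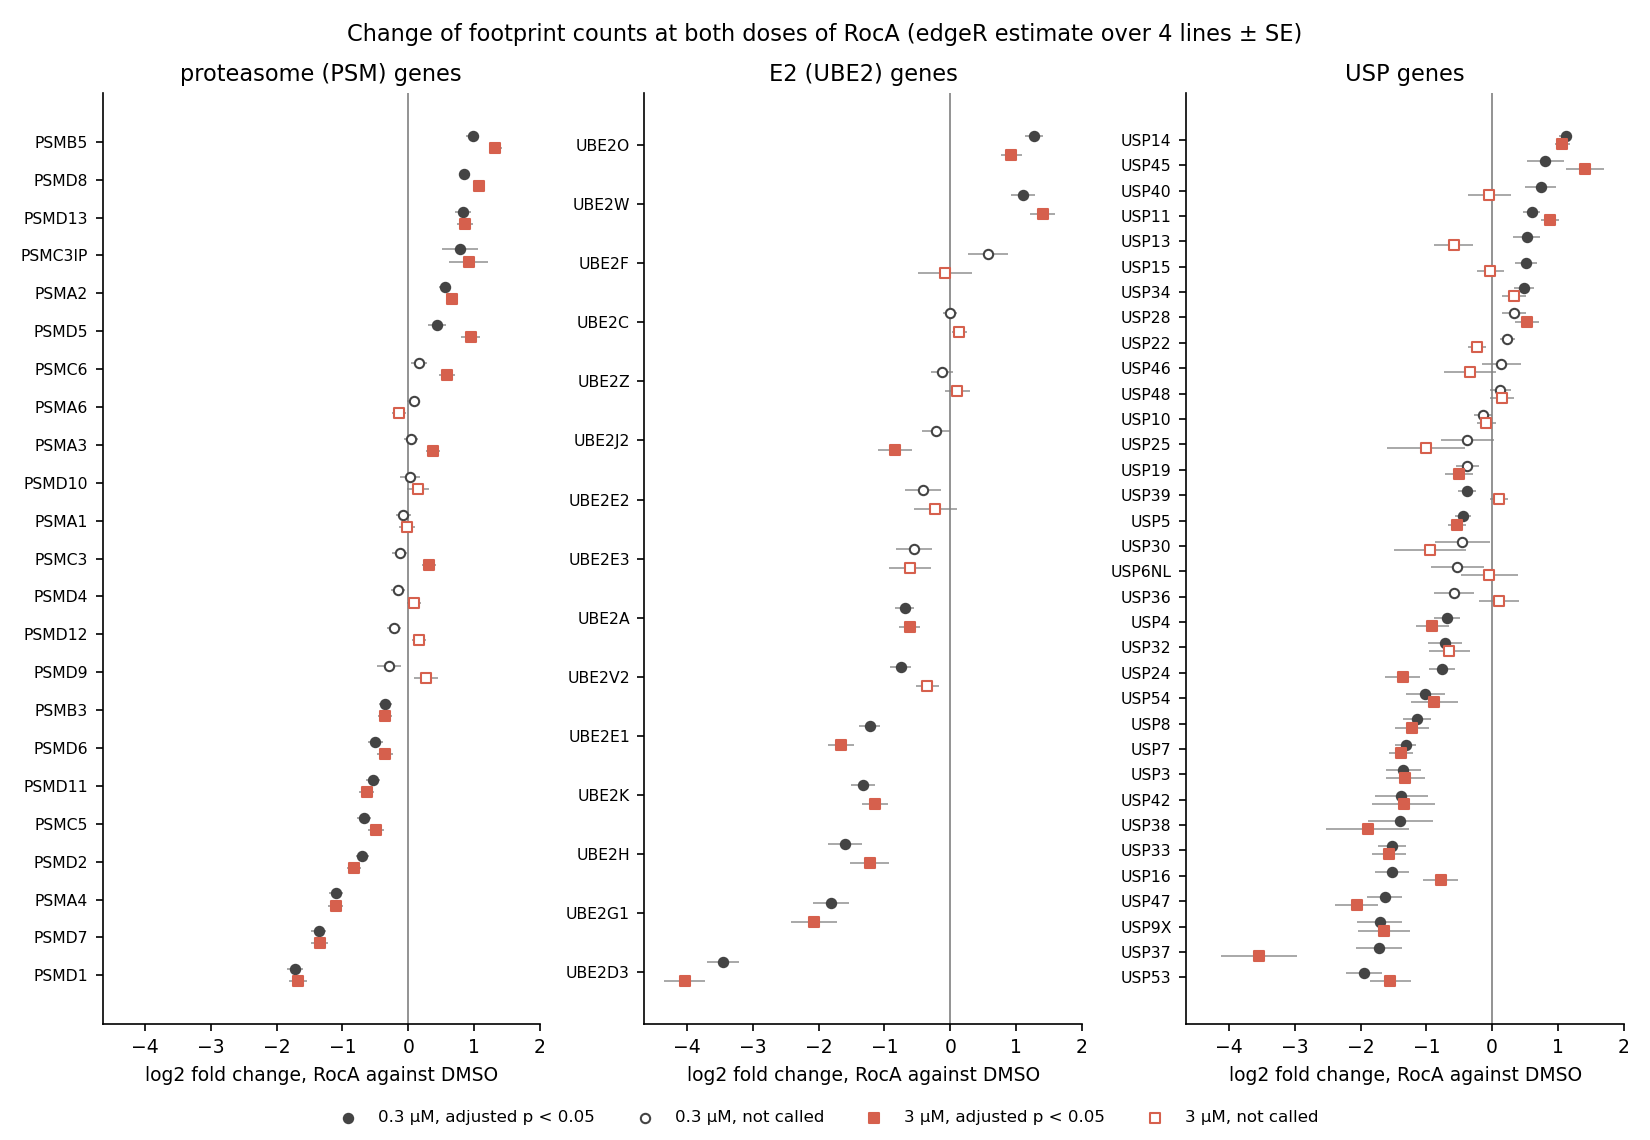
Log2 change in footprint counts against DMSO for the 72 tested members, by class, at 0.3 and 3 µM RocA; points are fitted values, bars their SE, and filled points have an adjusted p under 0.05. Proteasome genes lie on both sides of 0, and UBE2D3 has the lowest value at either dose, -3.46 and -4.04.

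The members' footprints as a class fell by different amounts. The E2 genes together held 57.5% to 65.4% of their line's mean DMSO share of footprints at 0.3 µM and 61.3% to 72.5% at 3 µM. All 8 RocA libraries were therefore lower in this summed value. A sum is weighted to genes with many counts, and UBE2D3 weighs heavily on this one. It fell from a mean of 350.9 CPM under DMSO, which among E2 genes only UBE2C exceeded, to 7.93 to 50.2 CPM under RocA. The E2 share without UBE2D3 was not computed. USP genes kept 73.8% to 85.3% at 0.3 µM and 70.3% to 90.4% at 3 µM. Proteasome genes kept 76% to 95.1% at 0.3 µM and 87.9% to 98.3% at 3 µM, so this class lost least in summed share at 3 µM in 3 of the 4 lines, the exception being NCI-H1650, where the USP share was 88.8% and the proteasome share 87.9%.

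Sequences are shown for the 2 members of each class with the lowest and the 2 with the highest log2 change at 0.3 µM, a rule chosen after values were seen. Each is the longest run of purines (A or G) in the annotated 5′ untranslated region, since RocA is known for acting at purine-rich RNA. Capitals mark the run, letters are 5′ to 3′ of the transcript strand, and coordinates are GRCh38 positions of the letters shown, which all lie in exonic 5′ UTR. The members that fell are PSMD1 (chr2:231056891-231056905, plus strand), PSMD7 (chr16:74296810-74296830, plus strand), UBE2D3 (chr4:102827704-102827728, minus strand), UBE2G1 (chr17:4366317-4366327, minus strand), USP53 (chr4:119214117-119214142, plus strand) and USP37 (chr2:218562747-218562762, minus strand). Their runs are of 7, 13, 17, 7, 18 and 8 purines, so long and short runs both occur.
PSMD1: gcctGAGGAGGcgac
PSMD7: aaccGGAAGAAGAGGAActgg
UBE2D3: ttccGAGAAGAAGGAAAAGGGcttg
UBE2G1: cggcAGGGAGG
USP53: aattAAAAAAAAAAAAAAAAAAccaa
USP37: tcccAAGAAGAGtgct

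The members that rose are PSMB5 (chr14:23034958-23034971, minus strand), PSMD8 (chr19:38374541-38374553, plus strand), UBE2O (chr17:76453154-76453165, minus strand), USP14 (chr18:158652-158662, plus strand) and USP45 (chr6:99515275-99515292, minus strand), with runs of 6, 5, 4, 3 and 10 purines. UBE2W, the other E2 gene with a high value, is not shown. USP9X (chrX:41085832-41085860, plus strand), whose response differed between lines, and USP34 (chr2:61470702-61470724, minus strand), which rose at 0.3 µM with a long run, are added.
PSMB5: taatAGGAAGtgaa
PSMD8: gggcAAAAGccaa
UBE2O: gcccGAGActcg
USP14: cgtcAGGccca
USP45: ggctGGAAGAGAGGctcc
USP9X: gcctGAGGGGAGAAGGGGAAGAGGGccgt
USP34: aagcGGGGGAGGGGGGGGGcggc

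In the core particle, PSMB5 rose most. PSMB5 encodes the beta subunit with chymotrypsin-like activity, the main site of proteasome inhibitor drugs. It held 230 to 561.6 CPM in the 8 DMSO libraries (median 411.9), and 533, 1065, 538.4 and 1117 CPM in line order at 0.3 µM. At 3 µM these lines held 459.6, 1369, 959.7 and 1162 CPM. The highest DMSO library stood above the lowest RocA libraries, so the groups overlapped when lines were pooled. Within the fit the log2 change was 0.98 ± 0.10 (SE) at 0.3 µM and 1.32 ± 0.10 at 3 µM, with adjusted p of 2.01e-11 and 8.16e-15 (edgeR). PSMB3, a beta subunit without catalytic activity, fell by 0.35 on the log2 scale at 0.3 µM (adjusted p 0.00221, edgeR) and by 0.36 at 3 µM. These calls were lost without the 0.3 µM library of NCI-H1650 and the 3 µM library of A375, respectively.

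The alpha ring, whose subunits gate entry to the barrel, moved in both directions. PSMA4 held 667.8 to 939.9 CPM under DMSO, and 343.6, 345.4, 429.9 and 381.7 CPM in line order at 0.3 µM. At 3 µM it held 306.4, 410.3, 422.7 and 352.9 CPM, so no RocA library reached the lowest DMSO library. Its log2 change was -1.09 ± 0.10 at 0.3 µM (adjusted p 2.38e-12, edgeR). PSMA2, a neighbour in the same ring, rose by 0.55 ± 0.09 at 0.3 µM and 0.66 ± 0.09 at 3 µM. PSMA3 rose at 3 µM (0.38 ± 0.11, adjusted p 0.00386, edgeR) and gave 0.04 ± 0.11 at 0.3 µM, and the 3 µM call was lost without the 3 µM library of NCI-H520. PSMA1 and PSMA6 did not pass the test at either dose, with log2 changes between -0.14 and 0.08.

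Among the base subunits, the scaffold genes fell. PSMD1, the largest subunit of the cap, held 288.7 to 830.4 CPM under DMSO (median 423.9). At 0.3 µM it held 98.2, 143.9, 259.1 and 104.1 CPM in line order, and at 3 µM 76.6, 156.7, 239.9 and 134.8 CPM. Every RocA library was below every DMSO library, and the log2 change was -1.72 ± 0.13 at 0.3 µM (adjusted p 9.28e-16, edgeR) and -1.67 ± 0.14 at 3 µM. PSMD2, the related scaffold that binds ubiquitin shuttles, changed by -0.70 ± 0.10 and -0.82 ± 0.11. The ATPase PSMC5 fell at 0.3 µM (-0.67 ± 0.11) and 3 µM (-0.49 ± 0.12). The ATPases PSMC3 (0.32 ± 0.11) and PSMC6 (0.59 ± 0.12) rose at 3 µM and gave -0.13 and 0.16 at 0.3 µM without passing the test. The call for PSMC3 was lost without the 3 µM library of NCI-H520 or that of A375. PSMD4, a ubiquitin receptor, did not pass the test (-0.16 and 0.09).

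The lid, which takes ubiquitin off substrates, held genes that fell beside genes that rose. PSMD7, the partner of the deubiquitinating subunit, changed by -1.36 ± 0.12 at 0.3 µM and -1.35 ± 0.13 at 3 µM. PSMD11 fell by 0.53 and 0.63 on the log2 scale, and PSMD6 by 0.50 and 0.35, the 3 µM call of PSMD6 being lost without the 3 µM library of NCI-H520, with upper-quartile scaling and with libraries thinned to equal depth. The lid subunit PSMD8 rose instead. It held 661.1 to 883.4 CPM under DMSO, 1164, 1281, 1342 and 1586 CPM at 0.3 µM and 1245, 1664, 1634 and 1642 CPM at 3 µM in NCI-H1650, NCI-H520, Hs 936.T and A375. No RocA library overlapped the DMSO libraries, and the log2 change was 0.85 ± 0.09 and 1.07 ± 0.09. PSMD13 rose by 0.83 ± 0.12 and 0.86 ± 0.12, and PSMD12 did not pass the test (-0.21 and 0.16). The NCI-H1650 library at 3 µM went against the rise of PSMD13, with 134.1 CPM against 145.9 and 149.3 CPM in the DMSO libraries of that line.

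Of the 3 assembly chaperones of the base, PSMD5 rose by 0.44 ± 0.14 and 0.95 ± 0.14, while PSMD9 (-0.30 and 0.27) and PSMD10 (0.03 and 0.15) did not pass the test. PSMC3IP, the recombination cofactor, rose by 0.78 ± 0.27 and 0.92 ± 0.30 from low counts. It was at 0 in the 3 µM library of NCI-H1650, and its calls were lost without the A375 library of the same dose.

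Subunits of 1 complex are needed in fixed ratios, so their footprint densities were compared within libraries. The density here is CPM per 100 codons of the counted reading frame, and its spread is the SD of log2 density over the 19 named core and cap subunits. That spread was 0.75 to 1.11 in the DMSO libraries and 1.09 to 1.44 in the RocA libraries. In all 8 RocA libraries it was above both DMSO libraries of the same line, also when libraries of a line were thinned to equal depth. The ranges pooled over lines overlap, because NCI-H1650 had the widest spread under DMSO as well (1.11 and 1.10). The smallest count of a subunit was 4, in NCI-H1650 at 3 µM. The spread was not compared with that of other gene sets. Of all tested genes 24.5% rose and 34.6% fell at 0.3 µM, so the wider spread is not read as particular to the proteasome.

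**Figure D2:**
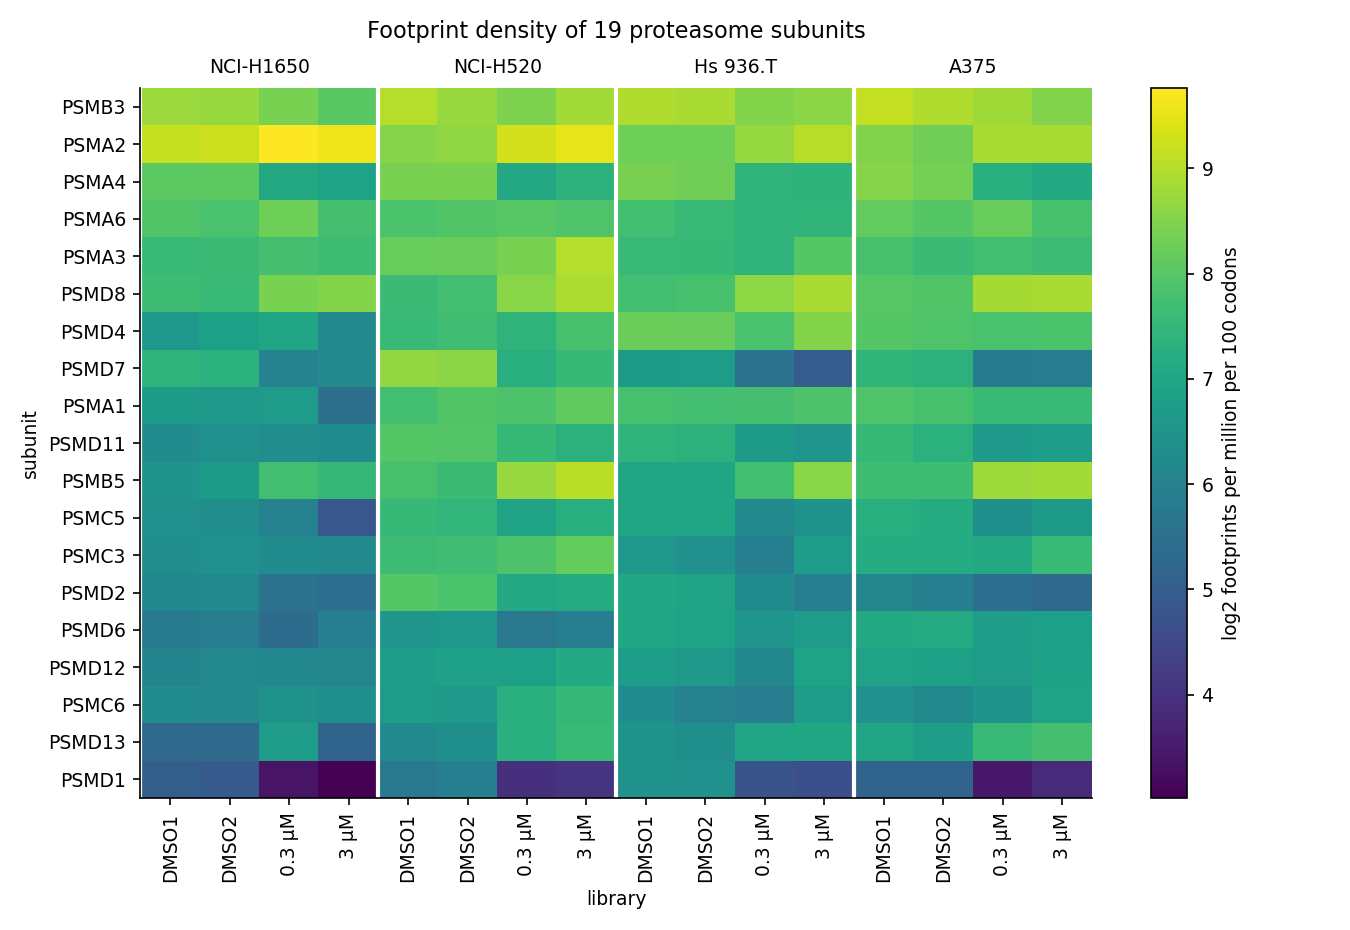
Footprint density (log2 CPM per 100 codons) of the 19 named proteasome subunits, rows, in the 16 libraries, columns ordered by line and dose. PSMD1 has lower density in every RocA library than in any DMSO library, and the spread over subunits is 0.75 to 1.11 under DMSO and 1.09 to 1.44 under RocA.

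Among the E2 genes, UBE2D3 had the lowest value of any member. UBE2D3 is an E2 used by many RING-type ligases, the class that passes ubiquitin directly from E2 to substrate. It held 259.7 to 417.1 CPM under DMSO (median 366.1), and 14.03, 23.99, 50.2 and 10.4 CPM in line order at 0.3 µM. At 3 µM it held 38.3, 13.8, 34.3 and 7.93 CPM in the same order, so every RocA library lay below every DMSO library. These rest on 35 counts over the 4 libraries at 0.3 µM and 16 at 3 µM. The log2 change was -3.46 ± 0.25 (adjusted p 5.85e-13, edgeR) and -4.04 ± 0.31 (adjusted p 3.69e-12), which is 10.99-fold and 16.4-fold lower. The sources used here do not say how reads shared with its close copies UBE2D1 and UBE2D2 were counted.

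Further falls came from E2 genes with other partners. UBE2G1, which lengthens chains with cullin ligases, held 42.3 to 177.7 CPM under DMSO and 42.1, 14.4, 14.1 and 20.8 CPM at 0.3 µM, with a log2 change of -1.81 ± 0.28, and -2.07 ± 0.35 at 3 µM. Its highest RocA library, at 42.1 CPM, was just below its lowest DMSO library, at 42.3 CPM, so the groups did not overlap. UBE2H, the E2 of the CTLH ligase, changed by -1.60 ± 0.26 and -1.22 ± 0.29. At 3 µM its NCI-H1650 library held 114.9 CPM, above the DMSO median of 69.2 over all lines. That was still below the 165 and 187 CPM in the DMSO libraries of NCI-H1650. UBE2K, which makes degradative chains, changed by -1.33 ± 0.18 and -1.14 ± 0.20. UBE2E1 fell with it, by 1.22 and 1.66 on the log2 scale.

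A pair of E2 genes rose. UBE2O, a large enzyme that acts as E2 and E3 at once, held 50.9 to 100.5 CPM under DMSO. At 0.3 µM it held 126.2, 143.9, 269.2 and 242.9 CPM in line order, and at 3 µM 134.1, 147.5, 190.4 and 182.4 CPM. No RocA library overlapped DMSO, and the log2 change was 1.27 ± 0.14 (adjusted p 8.4e-11, edgeR) and 0.93 ± 0.16. UBE2W, which attaches ubiquitin to the amino terminus of proteins, held 39.6 to 63.7 CPM under DMSO and 119.2, 177.5, 60.3 and 114.5 CPM at 0.3 µM. Only Hs 936.T at 0.3 µM stayed within the DMSO range, and the log2 change was 1.10 ± 0.18 and 1.40 ± 0.19. UBE2C, the E2 of the anaphase-promoting complex, gave 0.00 ± 0.11 and 0.14 ± 0.12, UBE2F, an E2 for NEDD8, 0.57 ± 0.30 and -0.08 ± 0.41, and UBE2Z -0.13 and 0.11, none passing the test. These last 3 were chosen after their values were seen.

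USP14 had the highest rise among USP genes at 0.3 µM. USP14 is the USP enzyme that binds the proteasome and trims ubiquitin from its substrates. It held 225.2 to 289.4 CPM under DMSO, and 673.2, 546.9, 429.9 and 603.7 CPM in line order at 0.3 µM. At 3 µM it held 555.4, 534.8, 514.1 and 527.4 CPM, and no RocA library reached down to the DMSO range. The log2 change was 1.12 ± 0.11 (adjusted p 1.89e-12, edgeR) and 1.06 ± 0.11. UCHL5, the other cysteine protease of the proteasome cap, gave -0.44 and -0.19 and did not pass the test.

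At 3 µM USP45, from low counts, rose more than USP14. USP11 rose by 0.60 ± 0.13 and 0.88 ± 0.13, from 96.0 to 377.7 CPM under DMSO to 163.1 to 593.3 CPM at 0.3 µM, higher in each line than in both of its DMSO libraries. USP45 changed by 0.81 ± 0.28 and 1.41 ± 0.29 (adjusted p 0.012 and 4.61e-05, edgeR), with the same sign in all 4 lines at 3 µM. Its 0.3 µM call was lost without the 0.3 µM library of NCI-H520 or of A375. USP40 (0.74 ± 0.23) and USP15 (0.51 ± 0.16) rose at 0.3 µM and gave -0.04 and -0.03 at 3 µM, and their calls were lost without the 0.3 µM library of A375. USP34 rose at 0.3 µM (0.48 ± 0.15), a call lost without the 0.3 µM library of Hs 936.T, and USP28 at 3 µM (0.53 ± 0.18), a call lost without the 3 µM library of NCI-H520.

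The USP falls were larger. USP53 changed by -1.94 ± 0.27 and -1.55 ± 0.31, with 0 CPM at both doses in NCI-H1650 against 30.1 and 32.8 CPM under DMSO. USP47, a relative of USP7, changed by -1.63 ± 0.26 and -2.06 ± 0.33, and USP16, which removes ubiquitin from histones, by -1.52 ± 0.26 and -0.78 ± 0.26. The USP16 call at 3 µM was lost without the A375 library of that dose. USP33 changed by -1.52 ± 0.21 and -1.57 ± 0.26, with 7.01 to 86.4 CPM at 0.3 µM against 53.4 to 184.1 CPM under DMSO, ranges that overlap through Hs 936.T. USP7, which acts on MDM2 and p53, changed by -1.31 ± 0.16 and -1.38 ± 0.18, with 62.5 to 134.3 CPM at 0.3 µM against 126.3 to 499.5 CPM under DMSO, and was chosen after its values were seen. In each line its RocA libraries were below both DMSO libraries. USP37 changed by -1.72 ± 0.35 at 0.3 µM. At 3 µM it held 3 counts over 4 libraries against 486 under DMSO, 10.6-fold lower with a 95% counting interval of 3.60 to 51.5. USP38 was called lower at both doses from 8 and 4 counts, and its calls were lost without some single RocA libraries of either dose.

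**Figure D3:**
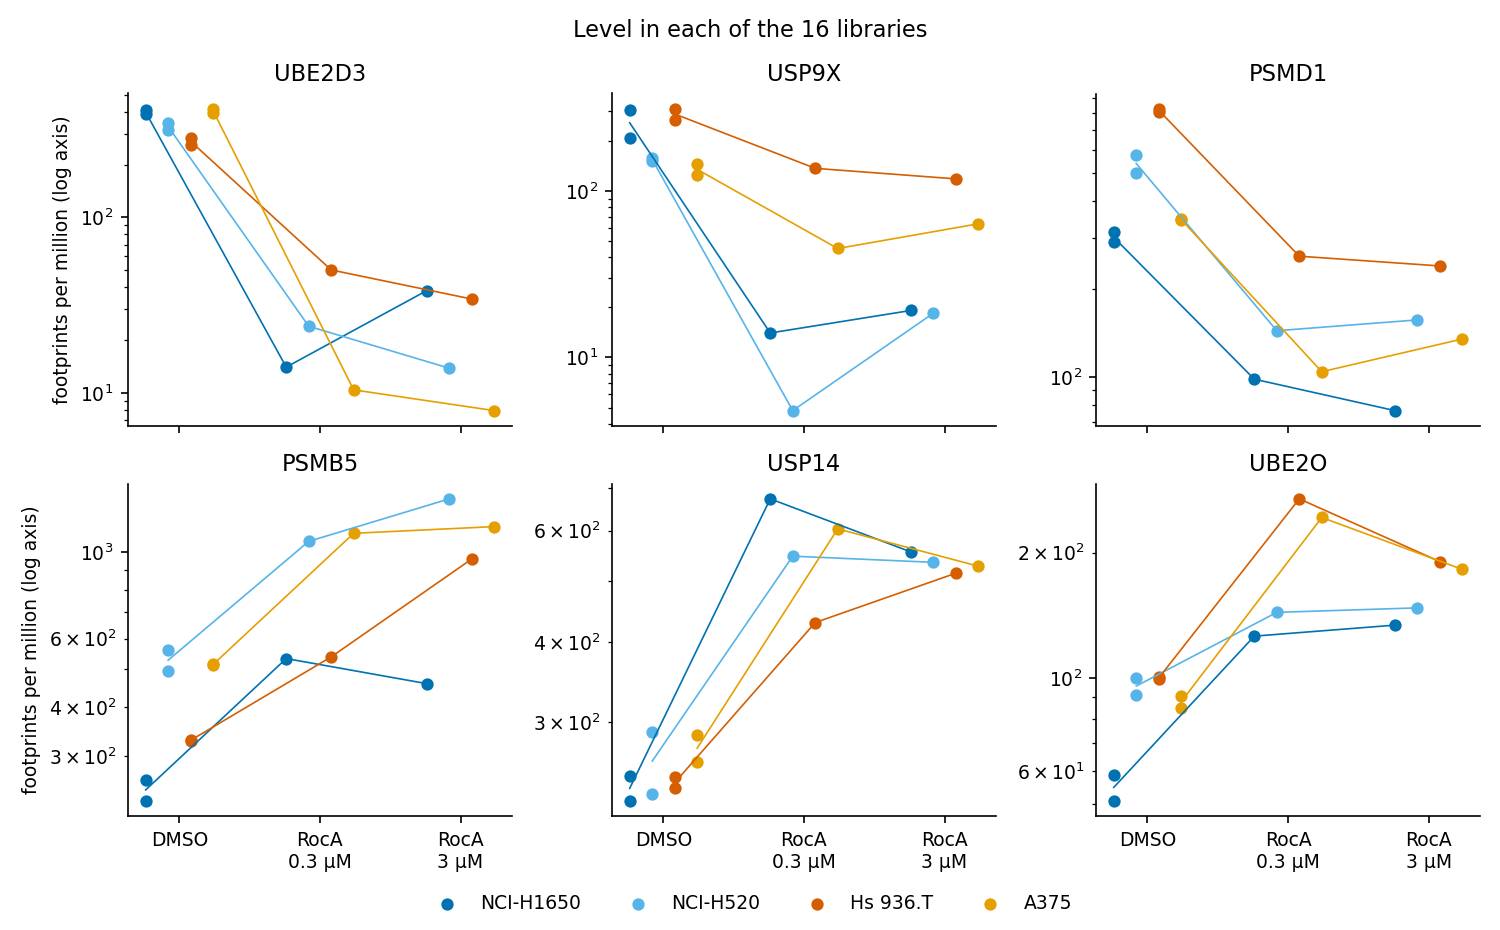
Footprint level (CPM, log axis) of UBE2D3, USP9X, PSMD1, PSMB5, USP14 and UBE2O in each of the 16 libraries, by line, with DMSO, 0.3 µM and 3 µM marked apart. UBE2D3 and PSMD1 lie below every DMSO library in all RocA libraries, UBE2O and USP14 above, and under RocA USP9X is lower in NCI-H1650 and NCI-H520 than in Hs 936.T and A375.

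Going from 0.3 to 3 µM moved few members. Of 72, 1 was higher and 1 lower at 3 µM than at 0.3 µM, against 1.15% of all tested genes higher and 2.15% lower. PSMC3, the base ATPase, was higher at 3 µM by 0.45 on the log2 scale (adjusted p 0.0451, edgeR). USP13, a relative of USP5, was lower by 1.11 (adjusted p 0.0486, edgeR), with 86.7 CPM at 0.3 µM and 31.7 at 3 µM in A375, and 91.2 and 38.3 CPM in NCI-H1650. The call of PSMC3 was lost in 19 of 27 alternatives (adjusted p 0.0206 to 0.467) and that of USP13 in 19 of 26 (0.0212 to 0.193).

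The response of 2 members differed between lines, against 3.52% of all tested genes. USP9X, which keeps many proteins from degradation, held 304.6 and 208.3 CPM under DMSO in NCI-H1650, and 14.03 CPM at 0.3 µM and 19.15 at 3 µM, from 2 and 1 counts. NCI-H520 held 151.6 and 157.6 CPM under DMSO, and 4.797 and 18.4 CPM at 0.3 and 3 µM, from 1 and 4 counts. In the melanoma lines USP9X stayed closer to DMSO: 267.2 and 312 against 136.6 and 118.1 CPM in Hs 936.T, and 124.9 and 144.4 against 45.1 and 63.4 CPM in A375. The log2 changes at 0.3 µM were -3.96, -4.47, -1.07 and -1.53 in NCI-H1650, NCI-H520, Hs 936.T and A375. The test of a difference between line responses gave an adjusted p of 0.000275 (edgeR), and 0.0777 when libraries of a line were thinned to equal depth, within a range of 9.16e-06 to 0.0777 over 22 alternatives. Each line had 1 library per RocA dose and the 2 doses stood in as its repeats, so lung against melanoma was not tested. The overall fall of USP9X was -1.71 ± 0.34 and -1.64 ± 0.39.

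UBE2D3 differed between lines as well, with an adjusted p of 0.00413 (edgeR). Its log2 changes at 0.3 µM were -4.61, -3.66, -2.38 and -5.00 in line order, and at 3 µM -3.30, -4.36, -2.90 and -5.31. Hs 936.T fell least at either dose, and A375 fell most. These values rest on 2, 5, 25 and 3 counts in line order at 0.3 µM. At 3 µM they rest on 2, 3, 9 and 2 counts, so the ranking of lines is uncertain. The call was lost without the 0.3 µM library of Hs 936.T (adjusted p 0.333) or of A375 (0.0617), both edgeR, within a range of 0.000676 to 0.333 over 23 alternatives.

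Under DMSO most members differed between the 4 lines, as did most genes. Of 76 members tested, 68 differed (edgeR F test), against 91.2% of all genes tested. Thinning libraries to equal depth left 42 of these calls. Among USP genes with at least 10 CPM on average, USP28, known for stabilising MYC, had the widest ratio of line means, 13.1, with 404.8 and 338.1 CPM in NCI-H520 and 28.4 in both libraries of Hs 936.T. USP53 was highest in Hs 936.T (152.7 and 140.3 CPM), at 7.20 times its lowest line, and USP25, the closest relative of USP28, was highest in NCI-H1650 (36.5 and 36.1 CPM), 6.26 times its lowest line. So the highest line differed between USP28 and USP25.

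Among proteasome genes, PSMD7 and PSMD2 were highest in NCI-H520, with 1278 and 1219 CPM and with 2265 and 2082 CPM, at 3.83 and 3.71 times their lowest line. PSMC3IP had 51 counts in NCI-H520 and 2 in NCI-H1650, a ratio of 24.9 with a 95% counting interval of 6.555 to 211.4. Proteasome genes together made up 1.05%, 1.54%, 1.16% and 1.31% of named-gene footprints under DMSO in NCI-H1650, NCI-H520, Hs 936.T and A375. Among E2 genes with at least 10 CPM on average, UBE2E2 (ratio 4.33), UBE2H (4.09) and UBE2G1 (3.32) had the widest ratios. Below that level lay USP43, with 20 counts in NCI-H1650 and 1 in Hs 936.T (ratio 69.3, 95% counting interval 11.1 to 2873), and UBE2Q2, with 44 in A375 and 2 in NCI-H520 (5.46, 1.42 to 46.5). USP14, which rose in every line under RocA, was among the 8 members not called between lines, with a ratio of 1.16 (adjusted p 0.205, edgeR).

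**Figure D4:**
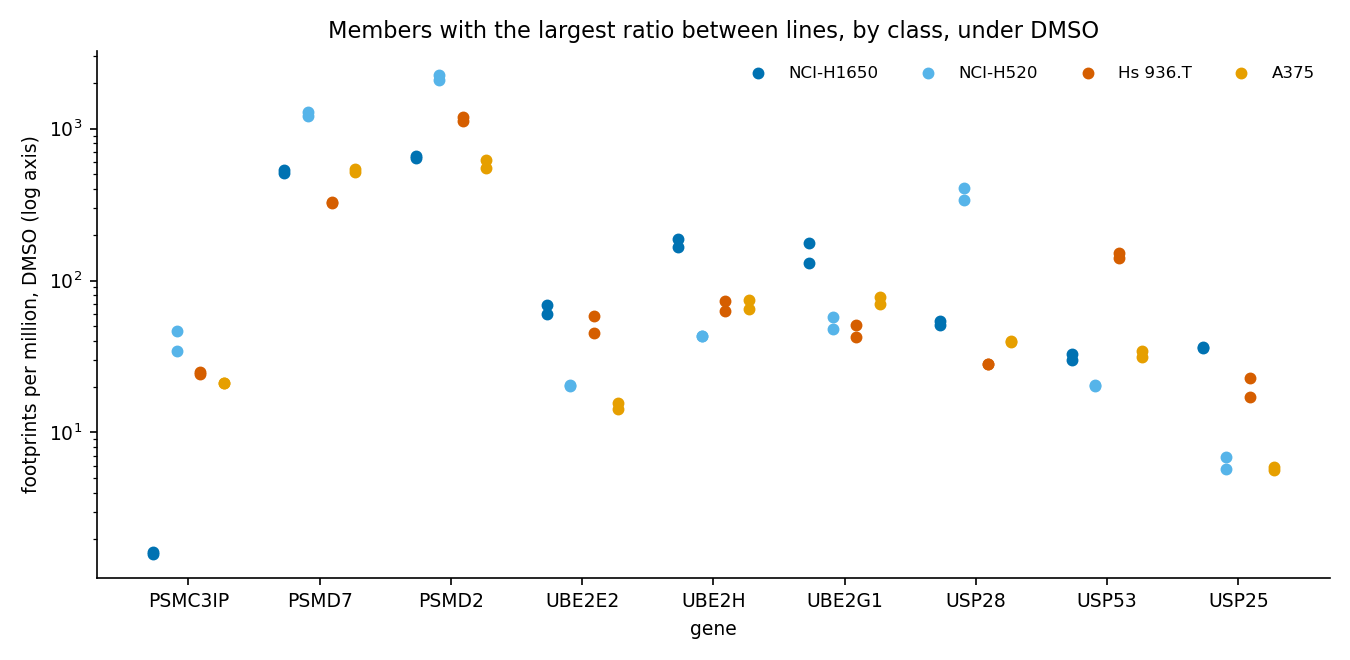
Footprint level under DMSO (CPM) of the 3 members per class with the widest ratio between lines among those with at least 10 CPM on average; points are the 2 DMSO libraries of each line. NCI-H520 is highest for PSMD7, PSMD2 and USP28, and Hs 936.T for USP53.

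Close relatives did not always move together. UBE2E1 fell (-1.22 ± 0.16 and -1.66 ± 0.20), and UBE2E2 (-0.42 ± 0.28 and -0.22 ± 0.33) and UBE2E3 (-0.55 ± 0.27 and -0.61 ± 0.32) did not pass the test. Of USP4, USP11 and USP15, USP4 fell (-0.69 ± 0.20 and -0.91 ± 0.25), USP11 rose at both doses and USP15 at 0.3 µM. The call of USP4 at 0.3 µM was lost without the 0.3 µM library of A375. USP5, which takes apart free ubiquitin chains, fell (-0.44 ± 0.12 and -0.54 ± 0.14), and its relative USP13 rose at 0.3 µM (0.53 ± 0.20, lost without the A375 library) and gave -0.58 ± 0.29 at 3 µM. USP24 fell (-0.76 ± 0.20 and -1.36 ± 0.26) with USP9X, and USP34 rose at 0.3 µM. At 0.3 µM the calls of USP5, USP24, USP34 and USP13 were lost when libraries were thinned. USP28 gave 0.33 and 0.53, and USP25 -0.38 ± 0.41 and -1.0 ± 0.59. Differences between relatives were not tested as such.

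Longer purine runs went with falls, among members as among all genes. A 5′ UTR could be matched for 70 of the 72 tested members and 5681 of the 5819 tested genes, and these features were chosen after results were seen. The matched UTR was only 1 base long for UBE2W, which rose, and 6 bases for PSMC6, so their runs could be no longer. In 12 members the longest run held at least 12 purines. Of these, 9 (75.0%) fell and 1 rose at 0.3 µM, and their median log2 change was -1.34. Of the 1066 tested genes with such a run, 52.0% fell and 12.3% rose. Of the 58 members with shorter runs, 22 (37.9%) fell and 13 rose, against 30.8% and 27.3% of 4615 genes. The motif AGAGAG, searched on the transcript strand, was present in 5 of 31 members that fell (16.1%) and 1 of 14 that rose (7.14%), against 15.3% of all genes that fell and 4.25% of all that rose. It was present in 10.3% of all tested genes. Of the 25 members not called at 0.3 µM 0 held it, against 9.76% of all genes not called. The median UTR was 199 bases in members that fell and 76 in those that rose, and 279 and 107 over all genes. A longer UTR has more places for a motif, so this comparison cannot separate the motif from UTR length.

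Run length moved with the length of the UTR. Across the 70 members, Spearman's rho of run length with the log2 change was -0.49 at 0.3 µM and -0.43 at 3 µM. That of UTR length was -0.40 and -0.43, and that of the purine percentage of the UTR -0.20 and -0.08. Over 5681 tested genes rho was -0.39 and -0.34 for run length and -0.41 and -0.38 for UTR length. For purine percentage it was -0.12 and -0.11. Run length and UTR length had a rho of 0.50 with each other across members and 0.64 across all genes, so they cannot be told apart here. These are descriptions over genes that share libraries and depth. There were exceptions in both directions: PSMD1 fell with a run of 7, PSMD4 with a run of 14 and PSMA1 with a run of 13 did not pass the test, USP34 with a run of 15 rose at 0.3 µM, and USP45 with a run of 10 and PSMA2 with a run of 9 rose at both doses.

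**Figure D5:**
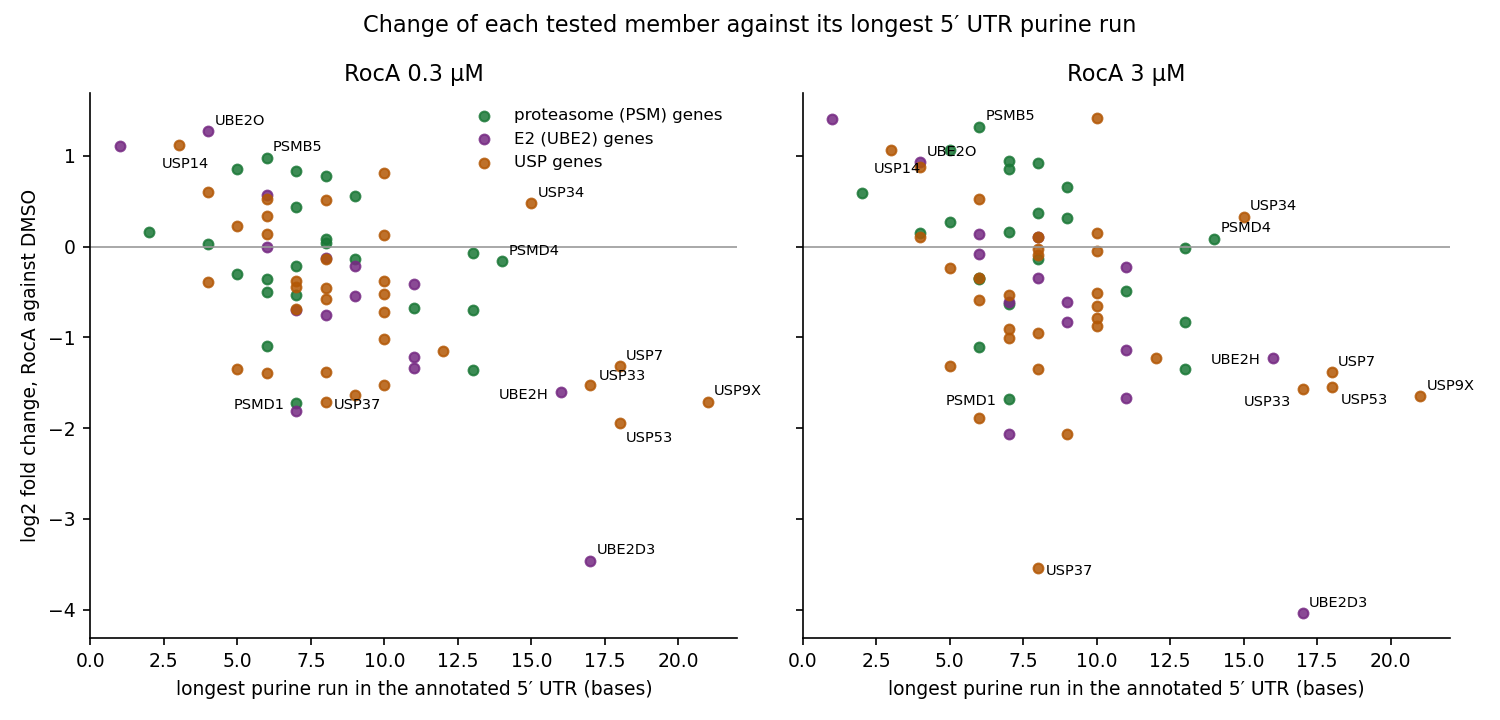
Log2 change against DMSO at 0.3 and 3 µM (y axis) by the longest purine run in the 5′ UTR in bases (x axis) for the 70 members with a matched UTR, coloured by class. Members with runs of 12 or more lie mostly below 0, 9 of 12 of them called lower at 0.3 µM, the others being USP34, which rose, and PSMA1 and PSMD4, which did not pass the test.

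Genes around these classes in the same pathway also moved in both directions. Of 106 tested genes in lists of pathway partners, 24 rose and 49 fell at 0.3 µM, with a median log2 change of -0.37, and 24 rose and 41 fell at 3 µM, with a median of -0.23. Over all tested genes 24.5% rose and 34.6% fell at 0.3 µM, with a median of -0.15, and nothing is read as particular to these lists. UBB, a polyubiquitin gene, fell by 0.50 on the log2 scale at 0.3 µM. Of 8 E1 genes, 3 rose and 4 fell at either dose, among them UBA6 (0.95 at 0.3 µM) and UBA1 (-0.23), the main ubiquitin E1. Proteasome activators, assembly factors and shuttles gave 3 rises and 7 falls of 14 at 0.3 µM, with PSME1 (1.23) higher and PSME3 (-2.74 ± 0.17), another activator subunit, 6.69-fold lower. NFE2L1, the transcription factor that raises proteasome genes when proteasomes are inhibited, changed by -1.93 ± 0.26 at 0.3 µM. Its response differed between lines (adjusted p 0.0416, edgeR), with log2 changes of -2.64, -3.22, -0.77 and -3.07 in line order at that dose.

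Lists of ligases and other deubiquitinases also held both rises and falls. HECT and other E3 ligases gave 5 rises and 14 falls of 26 at 0.3 µM, with UBE4B (-2.42) and UBE3A (-2.14) lower and UBR4 (1.83) and BIRC6 (1.62) higher. Cullin-RING ligase genes gave 5 rises and 6 falls of 18, with the scaffold CUL3 at -1.83 and the adaptor SKP1 at 0.72. The anaphase-promoting complex gave 2 rises and 5 falls of 9, segregase genes 2 and 5 of 10, and deubiquitinases outside the USP family 3 and 6 of 18. Median log2 changes of these 5 lists were, in the same order, -0.59, 0.21, -1.21, -0.30 and -0.40. Among all tested genes 24.5% rose and 34.6% fell at 0.3 µM, with a median of -0.15, and nothing is read as particular to these small lists. The named genes of these lists were chosen after their values were seen.

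Some members had too few counts for the dose test. PSMA8, UBE2U, USP29 and USP50 had 0 counts in every library. UBE2D4 had 28, UBE2Q2 94, USP2 30, USP31 55, USP35 62, USP43 80, USP44 5, USP49 8 and USP6 155 counts over all libraries. Reads of USP6 may be shared with its near-identical copy USP32, so both are uncertain.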

How the data were processed

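The authors deposited, per the labels, ribosome profiling data of 16 libraries as tables of a transcript identifier, a codon number and a whole-number footprint count per transcript, not normalized. The submitters' processing notes name CASAVA 1.8, Bowtie2 2.1.0, TopHat2 2.0.9 and build hg38. The annotation release and the handling of reads shared by several genes are not given in the sources used here. Reads of a gene recur in each of its entries, so 1 entry per gene was used.

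The deposited codon number equals the coding length less 10 codons, as tested on the files. Genes were named by matching the lengths of neighbouring entries to GENCODE release 29 (minimum score 14, odds 100). Of 9205 genes passing, 49 were dropped as shared and 8 left out as Y-linked. Decoy genes passed at 0.293% of that number. The counted entry was the longest of its gene for 70 of the 85 members.

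Counts were tested with edgeR 4.0.16 (R 4.3.3): robust quasi-likelihood fit, TMM scaling, filterByExpr with a minimum count of 10, line as covariate, Benjamini-Hochberg adjustment over all tested genes, 2-sided. The fit by line alone used the 8 DMSO libraries, and differences of response between lines were tested with a response term per line. The naming of genes and the edgeR fits were tested on simulated data. DESeq2 1.42.0, upper-quartile scaling, no low-count filter, the longest entry, stricter naming, thinning to equal depth and left-out libraries or lines were alternatives. Labels do not say that libraries of 1 line came from separate cultures, so p-values measure the spread between these libraries. DMSO pairs differed by more than counting noise (chi-square per degree of freedom 1.498 to 2.371). Counting intervals cover counting error only. Motifs were searched in annotated 5′ UTR on the transcript strand, without sequence from promoters.

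Genes named with values were all tested proteasome members, the 5 largest rises and falls per class and dose of E2 and USP genes with at least 10 CPM and the same sign in 4 lines, the 3 widest between lines per class, those called for dose step or line response, and tested paralogs. The members and lists were chosen with earlier results of these data known.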

Additional observations from a re-analysis of the deposited data

Results flagged for a closer look

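The RocA response of USP9X differed between the 4 lines, with an adjusted p of 0.000275 (edgeR), and that of UBE2D3 with an adjusted p of 0.00413 (edgeR). USP9X was lower in all 4 lines at both doses, and UBE2D3 likewise, so the difference is one of size. In 4 of 102 groups of line values examined, 1 line stood far from the other 3, and chance alone flags about 1 in 20 such groups. PSMA1 at 0.3 µM changed by -0.3 on the log2 scale in A375, against 0.01 to 0.06 in the other lines. USP37 at 0.3 µM changed by -3.54 in A375, where it had 0 counts, against -1.46 to -1.29 in the other lines. PSMD5 at 3 µM changed by 0.42 in NCI-H1650, from 9 counts, against 0.92 to 1.02. USP28 at 3 µM changed by 1.32 in NCI-H1650, from 7 counts, against 0.43 to 0.53.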

How the results depend on the processing

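Numbers of members that changed at 0.3 or 3 µM held within 1.5-fold under every alternative run except stricter naming, which tested fewer members and gave 29 changed with 19 lower at 0.3 µM and 29 with 18 lower at 3 µM, and the leaving out of A375, which gave 9 rises at 0.3 µM (main 15). Leaving out 1 library gave 42 to 48 changed at 0.3 µM (11 to 17 higher, 28 to 33 lower), 39 to 47 at 3 µM (12 to 15 higher, 26 to 32 lower) and 66 to 69 between lines. The 2 calls between doses became 1 with no low-count filter, stricter naming or without NCI-H1650, and 0 with the longest entry, thinning, without the libraries labelled NCI-H521, or without NCI-H520, Hs 936.T or A375, and ranged from 0 to 3 with 1 library left out. The 2 calls of a differing response became 1 with thinning or stricter naming and ranged from 1 to 4 with 1 library left out. Thinning left 42 of the 68 calls between lines. Causes were not tested. Over single genes, 2786 values kept their side of the threshold, 99 lost and 13 gained a call, and 0 reversed.

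DMSO replicate numbers did not pair libraries across lines (correlation of deviations -0.03 to 0.11). With them as a block, 47 members changed at 0.3 µM (15 higher, 32 lower), 45 at 3 µM (15 and 30), and 68 between lines. Depth limits what the RocA libraries can show, most of all NCI-H1650 at 3 µM with 47878 counts.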
